A study of Mus musculus with 23 samples.

Results

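The 39 genes described here encode the subunits of the proteasome and a few of its assembly chaperones, measured in microglia from the mouse striatum. They are the symbols Psma, Psmb, Psmc or Psmd followed by a number, and Adrm1, that had a mean of at least 1 CPM (counts per 1e6 of the column total) across the 23 libraries of the count table. Of the 40 symbols with such a name, 39 met that limit, out of 35976 genes in the table. Psmb11, the thymus-specific catalytic subunit, had 0 counts in all 23 libraries. All 39 members passed the filter on low counts, which left 16121 genes for testing.

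The proteasome is the protease that degrades proteins tagged with ubiquitin. Its 20S core is a barrel of alpha subunits, which form the gate, and beta subunits, of which Psmb5, Psmb6 and Psmb7 carry the catalytic sites. The 19S particle caps the core: a ring of ATPases (the Psmc genes) unfolds the substrate, and the non-ATPase subunits (most Psmd genes and Adrm1) bind ubiquitin, remove it and hold the lid together. In the immunoproteasome, Psmb8, Psmb9 and Psmb10 take the places of Psmb5, Psmb6 and Psmb7. Interferon gamma induces these subunits in many cell types, immune cells express them at rest, and they favour the cuts that yield peptides for MHC class I.

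The animals were male C57BL/6J mice, 9 weeks old per the labels, that took intravenous infusions by lever press in 15 daily sessions of 2 hr. The Abstinence group (n = 7 libraries) took methamphetamine at 0.05 mg/kg per infusion and then stayed drug-free in the home cage for 21 days. The Maintenance group (n = 8) took methamphetamine at the same dose and was collected right after the last session, and the Saline group (n = 8) took saline and was collected at that same point. No library comes from saline mice kept through the 21 days, so drug history, age and time in the home cage cannot be told apart in Abstinence against Saline. In Abstinence against Maintenance, time since the last drug session, age and time in the home cage cannot be told apart either. The labels do not state that each library is 1 animal, and p-values therefore measure the spread between libraries. In RNA from many cells, fewer cells of a type and less RNA per cell cannot be told apart.

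Total counts were 55 to 94.8 M (1e6) per library, with a median of 75.4 M. The 8 microglial markers were all present and summed to 48521 to 56356 CPM in Abstinence, 38284 to 56826 CPM in Maintenance and 45857 to 58561 CPM in Saline libraries. Maintenance 8 stood apart: its 7 markers of choroid plexus and ependymal cells summed to 73136 CPM, against at most 333 CPM in any Abstinence library and at most 275 CPM in any Saline library. Maintenance 6 and 7 had the fewest detected genes, 12459 and 12740. Oligodendrocyte markers summed to 1752 to 4480 CPM in Abstinence (median 3395), 1247 to 5077 CPM in Maintenance (median 3766) and 619 to 5107 CPM in Saline libraries (median 1680). Median sums were 36.7, 33.5 and 51.4 CPM for monocyte markers and 325, 81.4 and 371 CPM for erythrocyte markers in Abstinence, Maintenance and Saline libraries. The part of these cell types in the results was not tested beyond a fit with oligodendrocyte and leukocyte marker covariates. Choroid plexus, ependymal and erythrocyte markers were not among the covariates. Neutrophil markers summed to 10.2 to 143 CPM in Abstinence, 2.67 to 159 CPM in Maintenance and 42.3 to 778 CPM in Saline libraries, and were highest in Saline 6. Lymphocyte markers summed to at most 5.18 CPM in Abstinence, 16.8 CPM in Maintenance and 8.03 CPM in Saline libraries, with Cd3e at 0 throughout.

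The DNA before a listed start site of 5 catalytic genes is printed because these genes are compared pair by pair. That of Psmb7, the counterpart of Psmb10, is not printed. Each line holds the 250 bases before a start site listed by RefSeq (GRCm38.p6), and capitals mark a match to 1 of 5 searched motifs. The windows are chr17:34197945-34198194 (plus strand) for Psmb8, chr17:34187331-34187580 (minus) for Psmb9, chr8:105938393-105938642 (minus) for Psmb10, chr14:54617996-54618245 (minus) for Psmb5 and chr11:70525107-70525356 (plus) for Psmb6.
Psmb8: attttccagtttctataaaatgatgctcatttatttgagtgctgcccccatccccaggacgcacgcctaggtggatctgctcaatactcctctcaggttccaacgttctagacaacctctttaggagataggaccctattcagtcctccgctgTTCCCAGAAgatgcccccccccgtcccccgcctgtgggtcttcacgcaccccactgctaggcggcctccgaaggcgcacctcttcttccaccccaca
Psmb9: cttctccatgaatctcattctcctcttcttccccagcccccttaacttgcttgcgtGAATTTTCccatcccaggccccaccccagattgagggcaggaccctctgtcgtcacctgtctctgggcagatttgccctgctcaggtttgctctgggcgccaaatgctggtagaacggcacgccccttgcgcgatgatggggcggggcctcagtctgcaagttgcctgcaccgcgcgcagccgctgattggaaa
Psmb10: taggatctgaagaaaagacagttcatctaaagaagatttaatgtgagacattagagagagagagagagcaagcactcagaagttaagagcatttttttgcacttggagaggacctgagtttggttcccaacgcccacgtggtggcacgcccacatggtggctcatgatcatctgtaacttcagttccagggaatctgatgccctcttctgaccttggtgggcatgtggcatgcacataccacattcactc
Psmb5: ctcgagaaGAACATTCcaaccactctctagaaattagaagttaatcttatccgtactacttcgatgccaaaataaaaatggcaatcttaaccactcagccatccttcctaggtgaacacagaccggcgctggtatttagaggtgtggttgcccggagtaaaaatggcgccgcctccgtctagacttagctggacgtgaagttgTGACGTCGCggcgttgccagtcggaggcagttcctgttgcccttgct
Psmb6: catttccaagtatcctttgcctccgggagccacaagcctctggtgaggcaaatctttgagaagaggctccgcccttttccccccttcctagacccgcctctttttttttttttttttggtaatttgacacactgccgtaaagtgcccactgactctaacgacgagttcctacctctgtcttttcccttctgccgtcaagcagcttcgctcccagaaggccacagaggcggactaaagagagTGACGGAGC
In these windows Psmb8 holds TTCCCAGAA, a match to the palindrome TTCNNNGAA, 97 to 89 bases before the start. Psmb9 holds GAATTTTC, a match to the heat-shock factor motif GAANNTTC, 194 to 187 bases before the start. Psmb5 holds both TGACGTCGC, a match to TGACNNNGC, the motif of the proteasome regulators Nfe2l1 and Nfe2l2, and GAACATTC. The TGACNNNGC match of Psmb6, TGACGGAGC, ends at the base before the start site used for its window. The annotated start of the gene, chr11:70525324, lies upstream of this match, which therefore falls inside the annotated gene. No letters of the 5 motifs were found in the Psmb10 window.

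The motifs were searched on both strands of 34 RefSeq promoters of 32 member genes, each 250 bases before to 50 after the start. TGACNNNGC was found in 17.6% of the member promoters (6 of 34, those of Adrm1, Psmb5, Psmb6, Psmc6, Psmd9 and Psmd12), against 12.4% of all 32851 promoters. TGAGTCA was found in 2.94% against 5.2%, GAANNTTC in 5.88% against 7.86%, and TTCNNNGAA in 5.88% against 8.3%. The interferon-stimulated element, searched as GAAA on both sides of 2 free bases, was found in 8.82%, in Psmb3, Psmd4 and Psmd9, against 3.44% of all promoters. A match describes letters and is not a bound site.

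Psmb9 lies head to head with Tap1, which encodes a chain of the class I peptide transporter, on chromosome 17 with 225 bases between the annotated genes. Exons of the 2 genes nevertheless overlap by 212 bases in the GENCODE M21 basic annotation. The labels do not state the strand of the reads, so reads in that overlap cannot be told apart. Other members share exonic bases with genes that also have counts: Psmb7 with Nek6, Psmc3 with Slc39a13, Psmd13 with Sirt3, Psma4 with AY074887 and Psmb5 with Mir686.

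Per length of exon, 37 of the 39 genes had a mean between 23.1 and 243 CPM per kb over the 23 libraries. Among the core alpha subunits, Psma7 was highest at 124 CPM per kb, and Psma8, a form known from testis, was lowest at 3.58 CPM per kb. The constitutive beta subunits ran from 243 CPM per kb for Psmb6 to 44.6 CPM per kb for Psmb1. The ATPases lay closer together, from 92.5 CPM per kb for Psmc3 to 39.4 CPM per kb for Psmc6. Of the 19S non-ATPase subunits, Psmd2, the large scaffold of the base, was highest at 71.8 CPM per kb and Psmd3, a lid subunit, lowest at 23.1 CPM per kb. Among the assembly chaperones, which leave the finished particle, Psmd10 had 33.3 CPM per kb and Psmd9 8.08 CPM per kb.

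**Figure D1:**
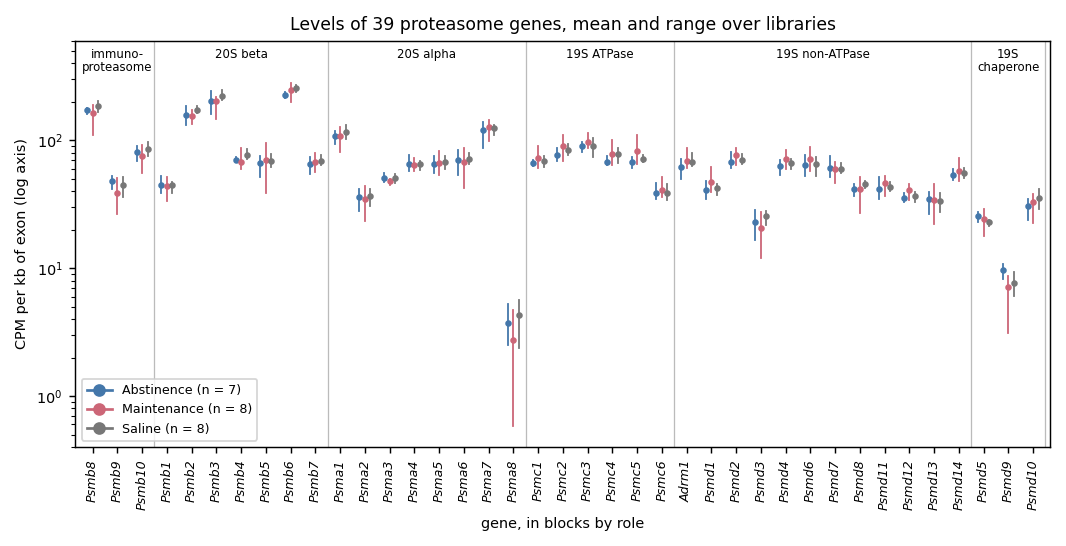
Level of each of the 39 genes in CPM per kb of exon on a log axis, in blocks by role, with the mean as a point and the range over libraries as a line for Abstinence (n = 7), Maintenance (n = 8) and Saline (n = 8). Apart from Psma8 and Psmd9, every gene has a mean above 20 CPM per kb over all libraries, and the ranges of the 3 groups overlap for every gene.

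The immunoproteasome subunits were not minor components of this RNA. Per length, Psmb8 reached 173 CPM per kb, Psmb10 80.4 CPM per kb and Psmb9 43.8 CPM per kb over the 23 libraries. Psmb8 accounted for 72.2% ± 2.4 of the Psmb8 and Psmb5 signal per length in Abstinence, 69.98% ± 7.37 in Maintenance and 72.9% ± 1.55 in Saline libraries (SD, n = 7, 8 and 8). Psmb10 held 55.5% ± 1.41 of its pair with Psmb7 in Abstinence, 52.5% ± 5.8 in Maintenance and 55.4% ± 2.59 in Saline libraries. The pair of Psmb9 with Psmb6 was the reverse, with Psmb9 at 17.5% ± 1.36 in Abstinence, 13.7% ± 2.02 in Maintenance and 15.1% ± 1.96 in Saline libraries. These are shares of RNA per exon length and do not measure assembled particles.

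Between groups, no member passed the test in any of the 3 comparisons. The test was edgeR's quasi-likelihood test on the counts, with Benjamini-Hochberg adjustment over the 16121 genes and a threshold of 0.05. Maintenance against Saline called 0 of 39 members, beside 0.707% of all genes tested (54 higher, 60 lower). Abstinence against Saline called 0 of 39, beside 0.0186% of all genes. Abstinence against Maintenance called 0 of 39, beside 0.949% of all genes (64 higher, 89 lower). DESeq2 called 0, 0 and 2 members in these comparisons, the 2 being Psmc5 and Psmd12, both lower in Abstinence than in Maintenance.

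At an unadjusted p under 0.05 there were 8 members in Maintenance against Saline, or 20.5%, beside 11.8% of all genes. Of these, 2 were higher (6.06% of all genes were) and 6 lower (5.73%). There were 3 in Abstinence against Saline, or 7.69%, beside 4.39% of all genes, with 1 higher (2.15% of all genes) and 2 lower (2.23%). Abstinence against Maintenance gave 9, or 23.1%, beside 11% of all genes, with 2 higher (5.11% of all genes) and 7 lower (5.86%). Genes with a mean of at least 20 CPM, which 38 of the members are, reached 19.6%, 7.6% and 19.5% in the same order of comparisons. The members' shares were thus near those of other genes of that level.

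The intervals around these differences were narrow. The 95% interval of the fold change lay within 1.5-fold in either direction for 38 of 39 members in Maintenance against Saline, 37 in Abstinence against Saline and 37 in Abstinence against Maintenance. The exceptions were Psma8, in all 3 comparisons, and Psmd9, in both comparisons of Abstinence. The same held for 35.5%, 38.3% and 34.3% of all genes tested, and for 82.3%, 88.3% and 81% of the 5762 genes with a mean of at least 20 CPM. The variation over all 23 libraries ran from a coefficient of 5.75% for Psma3, a core alpha subunit, to 36.3% for Psma8. No member had groups that did not overlap, beside 0.416% of all genes in Maintenance against Saline, 0.198% in Abstinence against Saline and 0.403% in Abstinence against Maintenance.

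**Figure D2:**
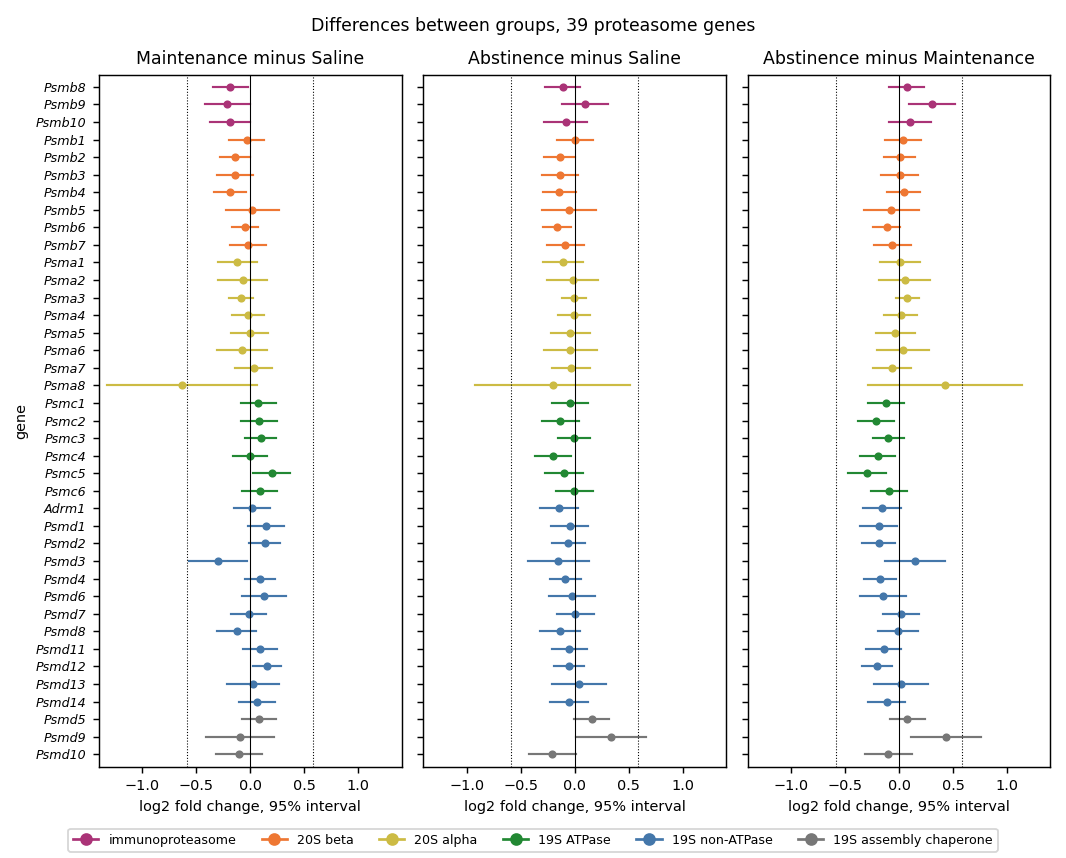
Log2 fold change of each of the 39 genes with its 95% interval in Maintenance minus Saline, Abstinence minus Saline and Abstinence minus Maintenance, coloured by role, with dotted lines at 1.5-fold. All intervals of the 19S ATPases and non-ATPase subunits lie between the dotted lines, and the widest interval in each panel is that of Psma8.

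By role, the signs of the fitted differences were unevenly spread although no gene passed. In Maintenance against Saline, 14 of the 18 subunits of the 19S particle had a positive log2 fold change (median 0.09), against 2 of the 15 core subunits (median -0.07) and 0 of the 3 immunoproteasome subunits (median -0.19). The median of all genes tested was 0.01, and 8154 of these 16121 genes were positive. Of the 5762 genes with a mean of at least 20 CPM, 2834 were positive. In Abstinence against Maintenance the 19S particle had 3 positive of 18 (median -0.15), the core 10 of 15 (median 0.01) and the immunoproteasome 3 of 3 (median 0.10). Of all 16121 genes tested, 8196 were positive in that comparison, and 2765 of the 5762 with a mean of at least 20 CPM. Maintenance against Saline and Abstinence against Maintenance share the Maintenance libraries, so their opposite signs are not separate observations. In Abstinence against Saline the medians were -0.05 for the 19S particle, -0.05 for the core and -0.08 for the immunoproteasome. There 33 of 39 members were negative, beside 7847 of 16121 genes tested. Of the 5762 genes with a mean of at least 20 CPM, 3118 were negative. All members were measured in the same libraries, so the signs of different members are not separate observations.

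In both comparisons with Maintenance, the median of the 19S particle kept its sign under each alternative fit tried, from 0.04 to 0.12 in Maintenance against Saline and from -0.18 to -0.09 in Abstinence against Maintenance. Without Maintenance 6, 7 and 8 it was 0.04 in Maintenance against Saline, while the core median was -0.005 and that of all genes -0.03. Of the core subunits, 5 of 15 were then positive, and 7 of 15 without Saline 5, 6 and 8 as well. The core median of Abstinence against Maintenance changed sign with the scaling and reached -0.07 without Maintenance 6, 7 and 8. The 19S median was -0.09 without these 3 libraries, so the 19S particle and the core then had the same sign. The immunoproteasome median was -0.07 in Maintenance against Saline without them, and in Abstinence against Maintenance it was -0.02. As a sum over genes, the 6 ATPases had 663, 699 and 730 CPM (lowest, median and highest) in Abstinence, 672, 778 and 908 CPM in Maintenance and 706, 741 and 770 CPM in Saline libraries. The Maintenance libraries thus spread widest, from Maintenance 7 at the low end to Maintenance 8 at the high end. Maintenance 7 was the lowest of its group in 21 of 39 members and Maintenance 8 the highest in 16 of 39. Single libraries of the other groups were highest about as often as Maintenance 8, with Abstinence 2 highest in 16 and Saline 6 in 17 of 39. No other library was lowest as often as Maintenance 7, the next being Abstinence 1, lowest in 15 of 39.

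Psmb8, the chymotrypsin-like subunit of the immunoproteasome, had 263, 277 and 292 CPM (lowest, median and highest) in Abstinence, 180, 273 and 307 CPM in Maintenance and 272, 301 and 331 CPM in Saline libraries. The groups overlapped, and the low value in Maintenance was that of Maintenance 8. The log2 fold change was -0.18 ± 0.08 (SE) in Maintenance against Saline, with an adjusted p of 0.316 in edgeR, and 7 of 8 Maintenance libraries lay below the Saline median. All 7 Abstinence libraries lay below the Saline median as well, with a log2 fold change of -0.11 ± 0.08 and an adjusted p of 0.999. Abstinence minus Maintenance was 0.07 ± 0.08 with an adjusted p of 0.878. Without Maintenance 6, 7 and 8, Maintenance minus Saline was -0.07.

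Psmb10, the trypsin-like subunit, had 89.5, 111 and 118 CPM in Abstinence and 72.3, 104 and 120 CPM in Maintenance libraries. In Saline libraries it had 99.6, 112 and 127 CPM. The 3 medians were close together, and Maintenance 8 was again the lowest library of its group. The log2 fold change was -0.19 ± 0.09 in Maintenance against Saline (edgeR adjusted p = 0.423), -0.08 ± 0.09 in Abstinence against Saline (0.999) and 0.10 ± 0.09 in Abstinence against Maintenance (0.818).

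Psmb9, which replaces the caspase-like subunit Psmb6, had 56, 65.6 and 70.4 CPM in Abstinence, 35.7, 51.2 and 68.7 CPM in Maintenance and 48.4, 60.8 and 70.1 CPM in Saline libraries. All 7 Abstinence libraries were above the Maintenance median, yet the groups overlapped, and Maintenance 6 was as high as the upper Abstinence libraries. Abstinence minus Maintenance was 0.30 ± 0.10 on the log2 scale, with an edgeR adjusted p of 0.178. Maintenance minus Saline was -0.21 ± 0.10 (adjusted p = 0.398) and Abstinence minus Saline 0.09 ± 0.10 (0.999). Without Maintenance 6, 7 and 8, Abstinence minus Maintenance was 0.29, with an adjusted p of 0.119. Tap1, whose exons overlap those of Psmb9, averaged 24.9 ± 3.54 CPM in Abstinence and 22.1 ± 6.16 CPM in Maintenance (SD, n = 7 and 8), with a log2 fold change of 0.17 ± 0.15 (adjusted p = 0.805).

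Maintenance 8 was the lowest Maintenance library for all 3 immunoproteasome subunits, and its summed microglial markers were the lowest of any library. Without it, the 7 other Maintenance libraries averaged 277 ± 25.3 CPM for Psmb8, 54.9 ± 6.58 CPM for Psmb9 and 102 ± 14 CPM for Psmb10 (SD). Over all 8, the means were 265 ± 41.7, 52.5 ± 9.14 and 98.5 ± 16.7 CPM for these genes. Saline 6, the library with the most neutrophil markers, was the highest Saline library for Psmb8 and Psmb10. It was also the highest Saline library in 17 of all 39 members, and had the highest summed microglial markers, 58561 CPM. A link between these was not tested. With mean oligodendrocyte and leukocyte markers as covariates, Maintenance minus Saline was -0.23 for Psmb8, -0.36 for Psmb9 and -0.13 for Psmb10 on the log2 scale, none past the threshold (lowest edgeR adjusted p = 0.591).

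Psmb5, the constitutive chymotrypsin-like subunit, had 46.6, 62.5 and 67.3 CPM in Abstinence, 35, 64.1 and 86.3 CPM in Maintenance and 55.1, 61.9 and 69.7 CPM in Saline libraries. The ends of the Maintenance range were Maintenance 7 (low) and Maintenance 8 (high). Psmb7, the trypsin-like subunit, had 63.8, 76.2 and 86.1 CPM in Abstinence, 65.3, 80.8 and 92.6 CPM in Maintenance and 74.3, 78.7 and 88.5 CPM in Saline libraries. For both genes the largest log2 fold change in size was -0.09, and the lowest edgeR adjusted p was 0.902.

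Psmb6, the caspase-like subunit, had 171, 184 and 189 CPM in Abstinence, 158, 196 and 223 CPM in Maintenance and 189, 200 and 217 CPM in Saline libraries. Each Abstinence library lay below both other medians, and the top of their range met the bottom of the Saline range. Abstinence minus Saline was -0.16 ± 0.06 on the log2 scale, the smallest p of any member in that comparison, with an edgeR adjusted p of 0.802. Abstinence minus Maintenance was -0.12 ± 0.06 (adjusted p = 0.525) and Maintenance minus Saline -0.05 ± 0.06 (0.852).

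**Figure D3:**
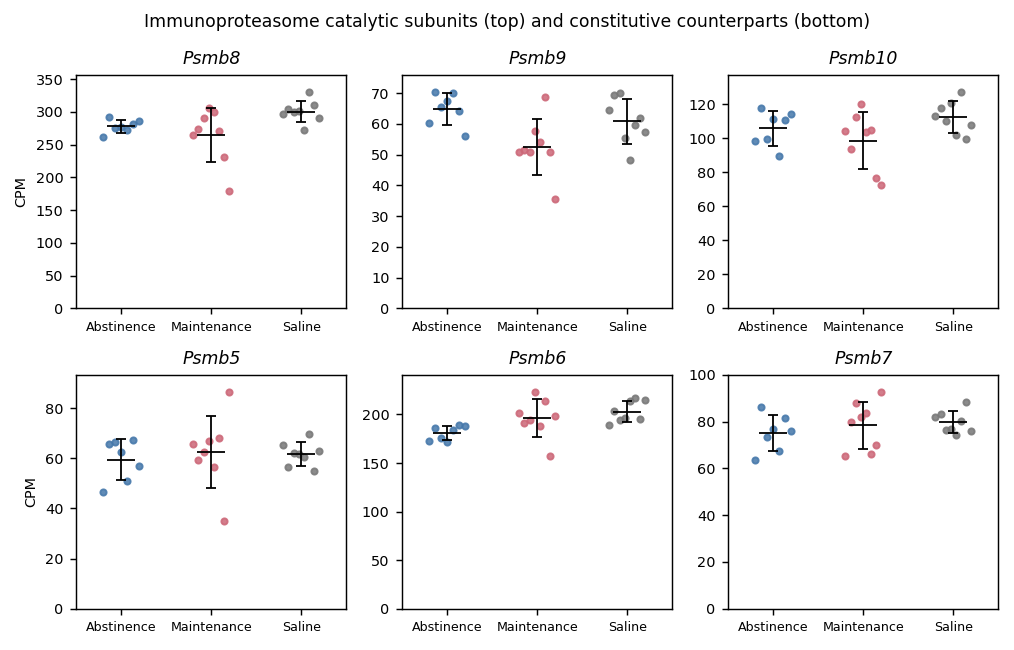
CPM of the immunoproteasome catalytic subunits (top row) and of the constitutive subunits whose places they take (bottom row) in each library, with the group mean and SD as bars. The lowest Maintenance point for Psmb8, Psmb9 and Psmb10 is Maintenance 8, which is the highest Maintenance point for Psmb5 and Psmb7.

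The exchange of subunits was then read within each library, as the ratio of each immunoproteasome count to its counterpart, which does not depend on library scaling. Psmb9 to Psmb6 was 0.297, 0.374 and 0.394 (lowest, median and highest) in Abstinence, 0.180, 0.265 and 0.323 in Maintenance and 0.227, 0.300 and 0.360 in Saline libraries. Each Abstinence library exceeded the Maintenance median, and only Abstinence 7 lay within the Maintenance range. Abstinence exceeded Maintenance by 0.43 ± 0.11 on the log2 scale, or 1.35-fold, with p = 0.00155 in a two-sided exact permutation test and 0.014 after adjustment over the 9 ratio tests. Leaving out each library in turn gave 0.35 to 0.47, and without Maintenance 6, 7 and 8 the difference was 0.43 with an adjusted p of 0.0227.

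No other ratio passed. Psmb9 to Psmb6 in Abstinence exceeded Saline by 0.26 ± 0.10 on the log2 scale, with 6 of 7 libraries above the Saline median and an adjusted exact permutation p of 0.0839. It passed without Saline 3 (0.042) or without Abstinence 7 (0.021). Without Maintenance 6, 7 and 8 and Saline 5, 6 and 8, it was 0.13 with an adjusted p of 0.375 in the same test. Maintenance minus Saline was -0.17 ± 0.12 for that ratio, with an adjusted exact permutation p of 0.39. That difference was -0.09 without Maintenance 8 and -0.30, with an adjusted p of 0.0714, without the 6 libraries just named. The Psmb9 ratio of Abstinence to Maintenance combines a fitted Psmb9 difference of 0.30 with a Psmb6 difference of -0.12, and neither gene passed alone. Reads in the overlap of Psmb9 and Tap1 may be counted in this ratio.

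Psmb8 to Psmb5 was 4.15, 4.46 and 5.63 in Abstinence, 2.08, 4.61 and 6.62 in Maintenance and 4.51, 4.79 and 5.64 in Saline libraries. The 2 Maintenance extremes were Maintenance 8 and Maintenance 7, and the 3 medians lay close together. Psmb10 to Psmb7 was 1.33, 1.36 and 1.54 in Abstinence, 0.781, 1.26 and 1.60 in Maintenance and 1.13, 1.42 and 1.58 in Saline libraries. For Psmb10 to Psmb7, all 7 Abstinence libraries lay above the Maintenance median, with a log2 difference of 0.18 ± 0.12 and an adjusted exact permutation p of 0.39. That difference was 0.08 without Maintenance 8 and 0.07 without Maintenance 6, 7 and 8. The remaining adjusted p-values of these 2 ratios were between 0.39 and 0.969.

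**Figure D4:**
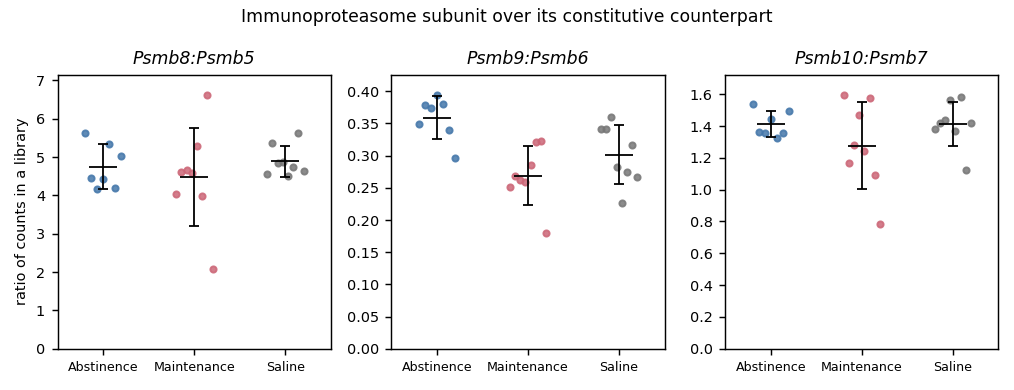
Ratio of counts of each immunoproteasome subunit to its constitutive counterpart in each library, with the group mean and SD as bars. For Psmb9:Psmb6, 6 of 7 Abstinence libraries lie above the highest Maintenance library at 0.323.

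Across the 23 libraries, log2 CPM of Psmb8 and Psmb10 went together, with Pearson r = 0.86 (permutation p = 6e-05 after adjustment over 6 relations) and Spearman rho = 0.74 (adjusted permutation p = 0.00084). Without the 2 farthest libraries, Maintenance 7 and 8, r was 0.67, and within groups it was 0.79 in Abstinence, 0.90 in Maintenance and 0.61 in Saline. Psmb8 with Psmb9 had r = 0.65 (adjusted permutation p = 0.0163) but rho = 0.32 (0.301). For this pair r fell to 0.11 without the same 2 libraries, and within groups it was 0.10 in Abstinence, 0.77 in Maintenance and 0.50 in Saline. Psmb9 with Psmb10 had r = 0.53 (adjusted permutation p = 0.0225) and rho = 0.27 (0.318), and r was 0.22 without Maintenance 8 and Saline 5. The 3 subunits had r of -0.04 (Psmb8 with Psmb5), -0.11 (Psmb9 with Psmb6) and 0.14 (Psmb10 with Psmb7) with their counterparts, with adjusted permutation p-values of at least 0.721. Without the 2 farthest libraries of each pair, Maintenance 8 among them, these r were 0.27, 0.00799 and 0.46. Within Abstinence r was 0.71 for Psmb8 with Psmb5 and 0.84 for Psmb10 with Psmb7, against -0.17 and -0.11 within Maintenance and 0.27 and -0.06 within Saline.

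Among the 8 genes most like the mean standardised level of Psmb8, Psmb9 and Psmb10, of 9420 ranked over 23 libraries, were Fcer1g (r = 0.88), Evi2a (0.87), Arpc4 (0.87), Trem2 (0.85), Hexa (0.84), Sft2d1 (0.84) and Fcrls (0.84). Without Maintenance 8 the r of these 7 genes was between 0.66 and 0.89. Fcrls is on the list of microglial markers.

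Among the other subunits, Psmb4, a core beta subunit without catalytic activity, had the smallest p in Maintenance against Saline. It had 79.7, 81.4 and 87.9 CPM in Abstinence, 70.3, 76.6 and 103 CPM in Maintenance and 84.5, 89.5 and 101 CPM in Saline libraries. Of the Maintenance libraries 7 of 8 lay below the Saline median, the exception being Maintenance 8. The log2 fold change of Maintenance over Saline was -0.19 ± 0.07 (edgeR adjusted p = 0.255), and it was -0.25 without Maintenance 8. Psmb2, another core beta subunit, had 113, 136 and 158 CPM in Abstinence, 116, 136 and 148 CPM in Maintenance and 140, 146 and 160 CPM in Saline libraries. Abstinence minus Saline was -0.14 ± 0.07 (edgeR adjusted p = 0.999) and Maintenance minus Saline -0.14 ± 0.07 (0.391), with 7 of 8 Maintenance libraries below the Saline median.

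Psmc5, a 19S ATPase, had the smallest adjusted p of any member. It had 80, 88.7 and 97.4 CPM in Abstinence, 85.5, 106 and 144 CPM in Maintenance and 89.4, 94.4 and 102 CPM in Saline libraries. All 7 Abstinence libraries lay below the Maintenance median, while 2 Maintenance libraries fell within the Abstinence range. Abstinence minus Maintenance was -0.30 ± 0.09 on the log2 scale with an edgeR adjusted p of 0.1. That p was 0.0427 without Maintenance 1, 0.0422 without Maintenance 2 and 0.0225 with DESeq2. Without Maintenance 6, 7 and 8 the difference was -0.18 with an adjusted p of 0.291. Maintenance minus Saline was 0.20 ± 0.08 (adjusted p = 0.327), and 0.07 without the same 3 libraries.

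Psmd12, a subunit of the 19S lid, had 87.2, 91.9 and 103 CPM in Abstinence, 90.6, 106 and 120 CPM in Maintenance and 87, 95.8 and 104 CPM in Saline libraries. The Maintenance libraries were the higher ones, 7 of 8 above the Saline median, and the groups overlapped. Abstinence minus Maintenance was -0.21 ± 0.07 on the log2 scale (edgeR adjusted p = 0.154, and 0.0353 with DESeq2), and Maintenance minus Saline was 0.16 ± 0.06 (edgeR adjusted p = 0.309). Psmc4, another ATPase, had 91.8, 95.6 and 108 CPM in Abstinence, 92.1, 109 and 145 CPM in Maintenance and 95.4, 110 and 126 CPM in Saline libraries. All 7 Abstinence libraries were below the Saline median, with a log2 fold change of -0.20 ± 0.08 (adjusted p = 0.877) that was -0.07 with the marker covariates.

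Psmd9, a chaperone of the ATPase ring, had its highest median in Abstinence. It had 21.4, 25.8 and 27.8 CPM in Abstinence, 8.1, 19.3 and 22.6 CPM in Maintenance and 15.6, 20.5 and 24.4 CPM in Saline libraries. Both other medians lay below all 7 Abstinence libraries, and Maintenance 6 was far below the rest of its group. The log2 fold change of Abstinence over Maintenance was 0.43 ± 0.16 (edgeR adjusted p = 0.23), and 0.31 without Maintenance 6. Abstinence minus Saline was 0.34 ± 0.16 (adjusted p = 0.999), and 0.12 with the marker covariates. Psmd3, the lowest non-ATPase subunit per length, averaged 49.4 ± 8.67 CPM in Abstinence, 44.5 ± 10.8 CPM in Maintenance and 54.8 ± 4.9 CPM in Saline (SD, n = 7, 8 and 8), with a log2 fold change of Maintenance over Saline of -0.30 ± 0.13 (adjusted p = 0.348).

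Genes that assemble, regulate or feed the proteasome gave the only calls in this pathway. Of 37 such genes listed, 36 were tested (Paaf1 was not found in the table). In Maintenance against Saline 0 passed, in Abstinence against Saline 0, and in Abstinence against Maintenance 2, both lower, or 5.56% beside 0.552% of all genes called lower. Of the 5762 genes with a mean of at least 20 CPM, to which both belong, 79 were called lower. At an unadjusted p under 0.05 7 of these genes (19.4%) were counted in Maintenance against Saline, 4 (11.1%) in Abstinence against Saline and 6 (16.7%) in Abstinence against Maintenance. Of these, 4, 1 and 2 were higher and 3, 3 and 4 lower. The shares of all genes were 11.8%, 4.39% and 11%, and those of genes with a mean of at least 20 CPM were 19.6%, 7.6% and 19.5%.

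Ecpas (AI314180 in the table), an adaptor that binds the 19S particle and links it to motor proteins and endosomes in human cells, fell in Abstinence relative to Maintenance. It had 26.8, 31.7 and 35.7 CPM in Abstinence, 40.6, 44.7 and 56.2 CPM in Maintenance and 31.3, 38.6 and 41.6 CPM in Saline libraries. Every Abstinence library lay below every Maintenance library, which held for 0.403% of all genes in either direction. The log2 fold change was -0.55 ± 0.09, with an edgeR adjusted p of 0.00195. The call remained when any library was left out, with adjusted p-values of 0.00149 to 0.00762. Maintenance minus Saline was 0.30 ± 0.09 (adjusted p = 0.12, and 0.023 with DESeq2), and Abstinence minus Saline was -0.26 ± 0.09 (0.755). All 8 Maintenance libraries were above, and all 7 Abstinence libraries below, the Saline median.

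Ubb, a polyubiquitin gene and an abundant source of ubiquitin RNA, fell in Abstinence relative to Maintenance. It had 1397, 1514 and 1596 CPM in Abstinence, 1536, 1808 and 2320 CPM in Maintenance and 1624, 1654 and 1800 CPM in Saline libraries. The Abstinence libraries overlapped the low end of Maintenance and lay wholly below Saline, which held for 0.198% of all genes in either direction. The log2 fold change of Abstinence over Maintenance was -0.29 ± 0.06 with an edgeR adjusted p of 0.0247, which was 0.057 without Abstinence 4, 0.0522 without Abstinence 5 and 0.095 with only the 2 groups in the fit. Abstinence minus Saline was -0.16 ± 0.06 (adjusted p = 0.935). Ubb is built of repeated ubiquitin units, so the assignment of its reads is uncertain.

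The subunits of the PA28 activator, which opens the core and is also induced by interferon, gave no call. Psme1 averaged 95 ± 10.7 CPM in Abstinence, 85.4 ± 14.2 CPM in Maintenance and 90.7 ± 6.77 CPM in Saline (SD, n = 7, 8 and 8). Psme2 averaged 100 ± 11.8 CPM in Abstinence, 109 ± 13.5 CPM in Maintenance and 113 ± 5.86 CPM in Saline. The 2 genes had opposite signs in both comparisons of Abstinence.

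Pomp, the maturation chaperone of the core, was close to level, at 195 ± 21.8 CPM in Abstinence, 193 ± 17.9 CPM in Maintenance and 200 ± 5.03 CPM in Saline. Nfe2l1, the transcription factor that raises proteasome genes when proteasome activity falls short, averaged 20.9 ± 5.15 CPM in Abstinence, 23.7 ± 12.1 CPM in Maintenance and 20.3 ± 3.67 CPM in Saline, with its highest value, 47.3 CPM, in Maintenance 8. Usp14, a deubiquitinase on the 19S particle, averaged 75.3 ± 8.33 CPM in Abstinence, 73.7 ± 8.1 CPM in Maintenance and 68.4 ± 7.8 CPM in Saline. Their log2 fold changes in Maintenance against Saline were -0.05 ± 0.07 for Pomp, 0.22 ± 0.23 for Nfe2l1 and 0.11 ± 0.09 for Usp14, with edgeR adjusted p-values of 0.719 or more.

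**Figure D5:**
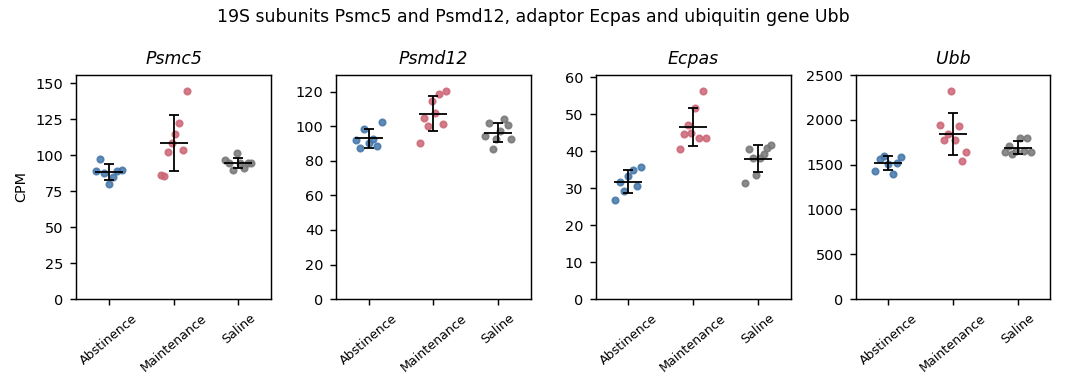
CPM of the ATPase Psmc5, the lid subunit Psmd12, the adaptor Ecpas and the ubiquitin gene Ubb in each library, with the group mean and SD as bars. For Ecpas the highest Abstinence library (35.7 CPM) lies below the lowest Maintenance library (40.6 CPM).

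The 11 interferon and class I genes read beside the immunoproteasome gave 0 calls in each comparison. Irf1, an interferon-induced regulator of Psmb9 and Tap1, averaged 137 ± 13.9 CPM in Abstinence, 144 ± 32.1 CPM in Maintenance and 126 ± 24.6 CPM in Saline. The groups overlapped. Maintenance minus Saline was 0.20 ± 0.13 for Irf1 and -0.27 ± 0.14 for Tap1 on the log2 scale, with edgeR adjusted p-values of 0.593 and 0.474. The smallest p of this list was that of Tapbp, the chaperone that edits class I peptides, at -0.27 ± 0.07 in Maintenance against Saline (adjusted p = 0.064).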

How the data were processed

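RNA of isolated striatal microglia was made into 23 libraries with a kit for single cells or little RNA, as the labels' protocols state. The submitters' processing notes name mm10 (GRCm38), STAR 2.7.10a, StringTie 2.1.5, DESeq2 1.38.3, cutadapt 1.18 and Trim Galore 0.6.7. Their order and settings, the way counts were taken and the strand of reads are not given in the sources used here. The deposited tables hold whole-number counts of reads per gene symbol, per the file headers and values. The table of all 23 libraries (35976 genes) was used. The second deposited table holds 17 of these libraries, and 0 of 611592 values differed. It leaves out Maintenance 6, 7 and 8 and Saline 5, 6 and 8, and gave an alternative set of libraries.

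Genes were kept with filterByExpr by group (minimum count 10, minimum total 15). CPM are scaled with TMM factors, which ran from 0.965 to 1.06. One edgeR 4.0.16 quasi-likelihood fit (robust) in R 4.3.3 covered all libraries, with group as the only term, 3 contrasts and Benjamini-Hochberg adjustment over 16121 genes. SEs are the log2 fold change over the square root of F. This script was tested on simulated data with known changes. Ratios of counts (pseudocount 0.5) were tested by exact permutation, two-sided, and correlations by 100000 permutations (scipy 1.17.1). Exon lengths are unions of exons in GENCODE M21 basic, and positions and promoters are RefSeq's for GRCm38.p6. No pair of libraries was a duplicate: the lowest chi-square per degree of freedom within a group was 28.7.

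Members, lists and rules were chosen with earlier results of these data known. Named members were the catalytic pairs, members past the threshold, the 4 of smallest p in each comparison and the highest and lowest per length in each role. Psmd3 was also given its values as an extreme of its role. Other pathway genes came from a list, of which those past the threshold and 5 others were named, and from the interferon list Tap1 and Irf1. Some listed genes are not reported here. Tapbp was named after its values were seen. The alternatives were RLE factors, library totals, no filter, DESeq2 1.42.0, a replicate block, marker covariates, a fit of only the compared groups, a pseudocount of 5, and sets of libraries left out.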

Additional observations from a re-analysis of the deposited data

Results flagged for a closer look

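Of 30 values examined (named genes and ratios) in the 3 groups, 8 of 90 sets of libraries had 1 library far from the rest by Dixon's criterion, which chance gives in about 1 in 20. Maintenance 8 was high for Psmb4, at 102.66 CPM with the next library at 84.5 CPM, and for Psmc4, at 144.904 CPM with the next at 117 CPM. This is the library with 73136 CPM of choroid plexus and ependymal markers. Maintenance 6, with 12459 genes detected, was low for Psmd9, at 8.0951 CPM against 17 CPM for the next library, and high for Psmc6, at 115.842 CPM against 95.3 CPM. Maintenance 7, with 12740 genes detected, was low for Psmd10, at 32.9013 CPM against 46.3 CPM. The part of these library features in the values was not tested.

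Abstinence 5 was high for Psmc6, at 103.326 CPM with the next library at 87.7 CPM. Saline 7 was low for Psmb1, at 132.024 CPM with the next at 155 CPM, and for the ratio of Psmb10 to Psmb7, at 1.12504 with the next at 1.37.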

How the results depend on the processing

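No member passed in Maintenance against Saline or Abstinence against Saline under any alternative, each library left out included. In Abstinence against Maintenance, DESeq2 called 2 members and leaving out 1 library gave 0 to 1, the 1 being Psmc5 without Maintenance 1 or 2. Leaving out 1 library moved the ratio of Psmb9 to Psmb6 in Abstinence against Saline between 0.20 and 0.31, Psmb8 to Psmb5 in Abstinence against Maintenance between -0.015 and 0.22, and Psmb10 to Psmb7 in Abstinence against Saline between -0.042 and 0.029 (log2). Some small log2 fold changes turned sign. In Maintenance against Saline, Psmb5 was -0.0074 with the replicate block, Psmb6 was 0.033 in the libraries of the second table, and with 1 library left out Psmb5 ran from -0.062 (without Maintenance 8) to 0.108 and Psmb7 from -0.063 to 0.011. With marker covariates, Abstinence against Saline was -0.015 for Psmb9 and 0.045 for Psmb5. In Abstinence against Maintenance, Psmb8 was -0.051 without Maintenance 6, 7 and 8, -0.058 in the second table's libraries and -0.0039 (without Maintenance 8) to 0.097 with 1 library left out, and Psmb10 was -0.018 and -0.025 in those 2 sets. Without the 2 farthest libraries, r was 0.27 for Psmb8 with Psmb5, 0.00799 for Psmb9 with Psmb6 and 0.46 for Psmb10 with Psmb7. The causes were not tested.

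Counts of all genes called in Maintenance against Saline, Abstinence against Saline and Abstinence against Maintenance were 114, 3 and 153. They were 351, 36 and 471 with DESeq2, 176, 56 and 238 in the second table's libraries, 16, 0 and 165 with marker covariates, 57, 5 and 64 with only the compared groups, and 85, 15 and 199 without Maintenance 6, 7 and 8. With 1 library left out they ran from 42 (without Saline 3) to 197 (without Saline 8), from 1 to 15 (without Saline 8) and from 89 (without Abstinence 3) to 265 (without Maintenance 8). The replicate block gave 69, 4 and 126, with 0 members called in each. Libraries of the same number had correlations of -0.12 to 0.09, none over 0.1, and matched their own number best in 1 of 8, 1 of 7 and 0 of 7 pairs, so the numbers were not taken to pair libraries. Depth limits mainly Psma8, whose lowest library had 79 counts, while the other members had at least 603 in every library.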
